A study of Mus musculus with 18 samples.

Results

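The genes described here encode 9 subunits of Polycomb repressive complex 1 (PRC1): Ring1, Rnf2, Bmi1, Pcgf6, Phc1, Cbx2, Cbx6, Cbx7 and Cbx8. They were taken by gene symbol, and all 9 were found among the 45706 genes of the count table. RNA was sequenced from mouse induced pluripotent stem cells (iPSCs) before and during their induction into epiblast-like cells (EpiLCs), the step at which cells leave the naive state of pluripotency. The study asked how loss of Hmga2, a chromatin protein, affects this transition, and Polycomb subunits bear on it because the repressive mark H3K27me3 was one of its readouts. The 18 libraries fell into 6 groups of 3: wt cells, KO#1 and KO#2, each at 0 h and 24 h. Hmga2 wt cells were represented by 1 clone, and the Hmga2 knockout (KO) cells by the clones KO#1 and KO#2, so that each genotype comparison is one between single clones. Cells at 0 h had been grown over inactivated fibroblast feeders in medium with serum, LIF and the inhibitors PD0325901 and CHIR-99021. Cells at 24 h had been replated on Geltrex, in serum-free medium with Activin A and bFGF, and a removal of the feeders is not described.

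PRC1 is an E3 ubiquitin ligase that places ubiquitin on histone H2A. Its catalytic core pairs Ring1 or Rnf2 (also called Ring1b) with one member of the Pcgf family, and the Pcgf member defines which form of the complex is built. Canonical PRC1 contains Bmi1 (Pcgf4) or Pcgf2, a Cbx protein whose chromodomain reads H3K27me3, and a Phc protein that polymerizes and compacts chromatin. Variant PRC1 contains Rybp or Yaf2 in place of Cbx and is built around the other Pcgf members, among them Pcgf6, which works with E2f6, Mga and Max. Exchange of Cbx subunits is known from the differentiation of pluripotent cells, in which Cbx7 is the main Cbx protein before lineage commitment and Cbx2 and Cbx8 come up later.

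Promoter windows are shown first for Ring1 and Pcgf6, because these genes carried the most calls among members with a window outside annotated exons. Each window holds the 250 bases upstream of the RefSeq start on GRCm38.p6, printed 5′ to 3′ along the strand of the gene. The Ring1 window lies at chr17:34024681-34024930 on the minus strand and the Pcgf6 window at chr19:47050907-47051156 on the minus strand. Capitals mark the letters GGGCGG, the GC box, on either strand.
Ring1: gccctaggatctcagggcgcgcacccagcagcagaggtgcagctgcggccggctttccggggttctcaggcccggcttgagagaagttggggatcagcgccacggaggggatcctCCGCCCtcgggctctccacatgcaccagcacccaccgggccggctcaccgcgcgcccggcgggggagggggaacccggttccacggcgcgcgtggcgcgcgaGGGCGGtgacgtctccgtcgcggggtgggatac
Pcgf6: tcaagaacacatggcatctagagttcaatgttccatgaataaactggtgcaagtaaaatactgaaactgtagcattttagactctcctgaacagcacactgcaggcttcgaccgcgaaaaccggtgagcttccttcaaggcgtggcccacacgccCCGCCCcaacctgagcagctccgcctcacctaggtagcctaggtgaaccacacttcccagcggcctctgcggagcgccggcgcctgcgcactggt
The Ring1 window had a GC content of 73.6% with 30 CpG and 2 GC boxes, and the Pcgf6 window 56% with 14 CpG and 1 GC box. Over all 32851 RefSeq windows of this length, the median was 52.4% GC with 6 CpG, and 32.7% held a GC box. Of the 9 members, 8 had a window, and 7 of those 8 held a GC box. The E-box CACGTG, to which Max dimers bind, was searched on both strands as well and was in neither of the printed windows, with 3 of 8 member windows and 6.02% of all windows holding it. The letters CCAAT were in 2 of 8 member windows and 33.8% of all windows. GCGGGA, the E2F6 core, was in 3 of 8 and 16.9%. Such matches describe the letters in the window only. Cbx2 had no entry in the set of windows used here. On chromosome 11, Cbx2 (119022962 to 119031270) and Cbx8 are neighbours with 5034 bp between them, and on chromosome 15 Cbx6 and Cbx7 are 81118 bp apart.

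Total counts ranged from 3466436 to 23872837 per library, with the lowest in wt cells at 0 h, replicate 1. Levels are given as CPM, the counts per 1000000 counts of the TMM-scaled library, and 3 counts in a library corresponded to 0.116 to 0.984 CPM. Protein-coding genes held 41.3% to 84.7% of the counts. At 0 h the share was 52.6% to 66.7% in wt cells, 62% to 77.4% in KO#1 and 76.3% to 79.1% in the KO#2-labelled libraries. It was 41.3% to 63.4% in wt and KO#1 cells at 24 h and 82.3% to 84.7% in the KO#2-labelled libraries at 24 h. Hmga2 itself had a log2 fold change against wt cells of -1.71 in KO#1 (SE 0.63, adjusted p = 0.124) and -1.90 for the KO#2-labelled libraries (SE 0.62, adjusted p = 0.023) at 0 h. At 24 h the values were -1.36 (SE 0.64, adjusted p = 0.22) and -0.04 (SE 0.60, adjusted p = 0.966). The KO#2-labelled libraries then had 10.5, 3.02 and 3.48 CPM of Hmga2, against 5.87, 5.51 and 5.93 CPM in wt cells. Replicate 1 of KO#2 thus lay above all wt libraries at 24 h, and replicates 2 and 3 lay below them. The marker levels of the cultures went with their labels, with summed levels of 2860 to 4870 CPM at 0 h and 1130 to 1970 CPM at 24 h for 7 pluripotent genes, and of 94.8 to 130 CPM and 517 to 2070 CPM for 6 EpiLC genes. By group, the pluripotent sums at 0 h were 3720 to 4870 CPM in wt cells, 3960 to 4240 CPM in KO#1 and 2860 to 3300 CPM in the KO#2-labelled libraries, and the EpiLC sums at 24 h were 1240 to 2070 CPM, 562 to 1110 CPM and 517 to 1230 CPM. The part of these differences in the member values was not tested.
The summed level of 8 fibroblast markers was 110 to 898 CPM at 0 h and 19.0 to 219 CPM at 24 h, with 71.0 to 219 CPM in the KO#2-labelled libraries and 19.0 to 51.8 CPM in the others at 24 h. Of these markers, Dcn was at 0 in all wt libraries at 0 h, and none was at 0 throughout any other group. The 4 primitive endoderm markers summed to 12.4 to 25.6 CPM in the KO#2-labelled libraries at 24 h and to 0.988 to 7.48 CPM in all other libraries, with none at 0 throughout a group. Nor was the part of these cells. In such bulk samples, fewer cells of a type and less RNA per cell cannot be told apart.

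Per length, the members spanned a wide range of RNA levels. Phc1, the polyhomeotic subunit, was the highest with 35.1 CPM per kb of exon as the mean of the 6 groups (17.7 to 75.1 over the 18 libraries). Cbx7 followed with 18.1 (10.1 to 27.7) and Rnf2 with 16.4 (4.53 to 30.2), and these ranges overlapped widely. Pcgf6 was at 9.76 (5.96 to 16.1), Cbx2 at 5.53 (2.70 to 10.9), Cbx6 at 3.73 (1.79 to 7.02), Bmi1 at 2.48 (0.743 to 4.62) and Ring1 at 1.73 (0.898 to 3.54) CPM per kb. Cbx8 was the lowest with 0.642 CPM per kb (0.136 to 2.41), from 5 to 81 counts per library. Neighbours in this order overlapped in their ranges over libraries in every case, from Phc1 and Cbx7 to Ring1 and Cbx8.

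**Figure D1:**
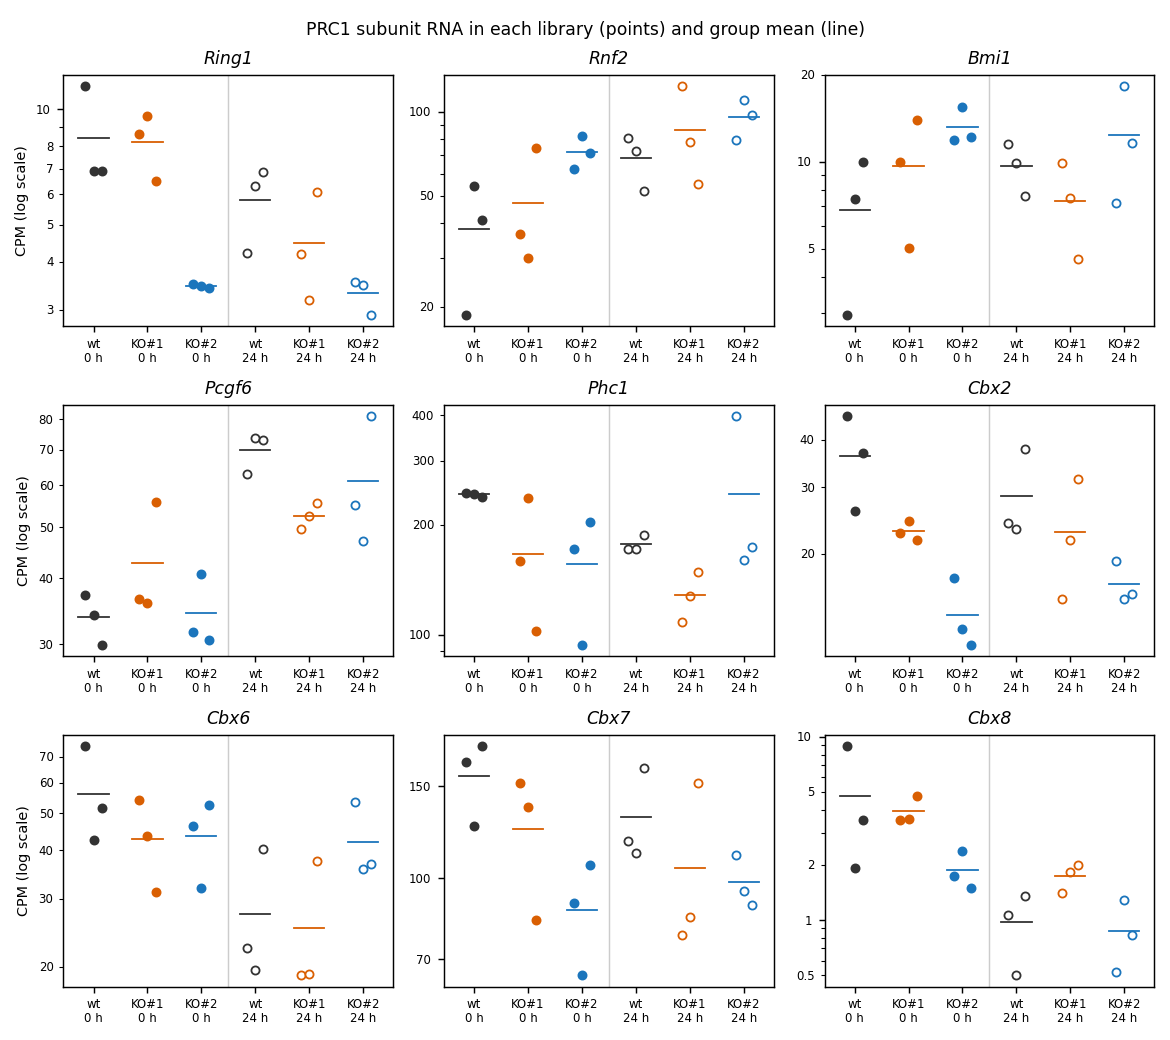
CPM of each of the 9 PRC1 members (log axis) in the 18 libraries by group, with a point for each library (filled at 0 h, open at 24 h) and a line for the group mean. Pcgf6 was higher in all 3 wt libraries at 24 h (63.0 to 73.7 CPM) than at 0 h (29.9 to 37.1 CPM), and Ring1 lay between 2.91 and 3.55 CPM in all 6 libraries labelled KO#2.

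Each member was tested in 11 comparisons with the quasi-likelihood test of edgeR, Benjamini-Hochberg adjustment running over all 16619 genes tested, and all 9 passed the filter on low counts. A gene is called when its adjusted p-value is under 0.05. Of the 99 tests, 12 gave a call: 4 for Ring1, 2 each for Pcgf6 and Cbx2, 1 each for Phc1, Cbx6, Cbx7 and Cbx8, and 0 for Rnf2 and Bmi1. With DESeq2 these 12 were all called, along with 4 others. Rnf2 had 3 and Bmi1 had 1 of 11 comparisons with an unadjusted p under 0.05 in edgeR, and DESeq2 called Rnf2 in 1 comparison and Bmi1 in 0.

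Upon the induction of EpiLCs in wt cells, Pcgf6 rose and Cbx6 and Cbx8 fell, 3 of the 9 members. In this comparison 50.7% of all genes were called, 26% higher and 24.7% lower, so that the share of members called lay below the background. The median log2 fold change of the members was -0.34, beside 0.03 for all genes. In KO#1 cells, 1 of 9 was called, Ring1, with 40.8% of all genes called and a member median of -0.37 beside 0.00. In the KO#2-labelled libraries, 1 of 9 was called, Pcgf6, with 26% of all genes called and a median of 0.18 beside -0.03. Tests of the difference in response called 0 of 9 members for either clone against wt cells, where 0.391% of all genes were called for KO#1 and 1.47% for KO#2. At an unadjusted p under 0.05 the count was 1 for each clone, Pcgf6 for KO#1 (10.1% of all genes) and Phc1 for KO#2 (23.6%), and DESeq2 called 0 for both (1.66% and 8.06% of all genes).

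Among the catalytic subunits, Ring1 was at 11.5, 6.89 and 6.92 CPM in wt cells at 0 h and at 4.22, 6.31 and 6.86 CPM at 24 h, from 31 counts upward in any library. All 3 values at 24 h were below those at 0 h, by a log2 fold change of -0.51 that did not pass the test (SE 0.31, adjusted p = 0.174). In KO#1 cells it went from 8.60, 9.60 and 6.48 CPM to 4.19, 3.17 and 6.10 CPM, again with no overlap, and here it fell by 0.85 on the log2 scale (SE 0.31, adjusted p = 0.033). This call was lost without replicate 1 or 2 of KO#1 at either time, with values from -0.81 to -0.68, and the difference from the response of wt cells was -0.35 (SE 0.43, adjusted p = 0.852). In the KO#2-labelled libraries, Ring1 stood at 3.49, 3.46 and 3.41 CPM at 0 h and at 3.55, 3.48 and 2.91 CPM at 24 h, a log2 fold change of -0.06 (SE 0.30, adjusted p = 0.909).
Rnf2, the catalytic partner that is the main H2A ligase of pluripotent cells, was measured at 18.7, 54.4 and 41.0 CPM in wt cells at 0 h and at 80.6, 72.4 and 52.0 CPM at 24 h. The lowest value belonged to the library with the fewest counts, and the groups overlapped. The log2 fold change was 0.83 in wt cells (SE 0.37, adjusted p = 0.074), 0.86 in KO#1 (SE 0.37, adjusted p = 0.072) and 0.41 for the KO#2-labelled libraries (SE 0.37, adjusted p = 0.445). None of these passed the test. Exons of Rnf2 share 158 bp with Trmt1l on the opposite strand, and whether the counting used strand is not given in the sources used here. Within the pair, Rnf2 held 74.9% ± 16.3 of the length-scaled RNA in wt cells at 0 h and 89.8% ± 4.06 at 24 h (SD, n = 3 each). Shares carry no correction for GC content, and with GC-corrected offsets the log2 fold changes with time in wt cells were 0.50 for Rnf2 and -0.22 for Ring1, against 0.83 and -0.51 without it. The share in wt replicate 1 at 0 h was 56.1%, against 86.1% and 82.3% in replicates 2 and 3.

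Of the Pcgf subunits, Pcgf6 rose with time in wt cells and in the KO#2-labelled libraries. In wt cells it was at 37.1, 34.1 and 29.9 CPM at 0 h and at 63.0, 73.7 and 73.1 CPM at 24 h, and it rose by a log2 fold change of 1.06 (SE 0.23, adjusted p = 0.0012). The call held in all 18 fits that left out 1 library, with values from 0.98 to 1.11, and was lost with library sizes alone (0.44, adjusted p = 0.255). In the KO#2-labelled libraries it rose from 31.7, 40.7 and 30.6 CPM to 55.1, 47.1 and 81.1 CPM, with no overlap and a log2 fold change of 0.83 (SE 0.23, adjusted p = 0.012). This call was lost without KO#2 replicate 1 or 3 at 0 h (0.78 and 0.76) and without replicate 3 at 24 h (0.58, adjusted p = 0.101). KO#1 cells had 36.6, 35.9 and 55.7 CPM at 0 h and 49.6, 52.5 and 55.6 CPM at 24 h, where replicate 3 was as high at 0 h as any library at 24 h. The log2 fold change in KO#1 was 0.29 (SE 0.23, adjusted p = 0.314), and its difference from that of wt cells was -0.77 (SE 0.32, adjusted p = 0.415), an interval of -1.41 to -0.12 at 2 SE either side.
Bmi1 had between 2.95 and 18.3 CPM, from 9 counts upward. Its values at 0 h and 24 h overlapped in each line, with 2.95, 7.44 and 10.0 CPM at 0 h and 11.5, 9.92 and 7.60 CPM at 24 h in wt cells. The log2 fold change was 0.44 in wt cells (SE 0.42, adjusted p = 0.402), -0.44 in KO#1 (SE 0.42, adjusted p = 0.418) and -0.09 for the KO#2-labelled libraries (SE 0.40, adjusted p = 0.898).

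Phc1 was at 245, 244 and 239 CPM in wt cells at 0 h and at 172, 172 and 188 CPM at 24 h. The groups did not overlap, and the log2 fold change of -0.45 did not pass the test (SE 0.35, adjusted p = 0.293). In KO#1 cells the values of 159, 237 and 102 CPM at 0 h and 108, 128 and 149 CPM at 24 h overlapped. KO#2-labelled libraries had 172, 93.7 and 204 CPM at 0 h and 398, 160 and 174 CPM at 24 h, where replicate 1 stood far above the others. The difference in response from wt cells was 1.09 (SE 0.50, adjusted p = 0.197), with an interval of 0.09 to 2.08 at 2 SE either side.

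Of the Cbx subunits, Cbx8 and Cbx6 fell with time in wt cells, and differences among the Cbx genes were not tested. Cbx8, which reads H3K27me3 and is typical of differentiated cells, had the largest change of the members in wt cells. It was at 8.86, 1.93 and 3.50 CPM at 0 h and at 1.06, 0.501 and 1.36 CPM at 24 h, with no overlap, and it fell by 2.13 on the log2 scale (SE 0.51, adjusted p = 0.0025). Without wt replicate 1 at 0 h, the library with the fewest counts, the log2 fold change was -1.47 and the call held, as it did in all 18 fits that left out 1 library. The values also did not overlap in KO#1, with 3.52, 3.55 and 4.73 CPM at 0 h and 1.40, 1.84 and 1.99 CPM at 24 h, nor in the KO#2-labelled libraries, with 1.75, 2.38 and 1.49 CPM and 0.523, 1.28 and 0.825 CPM. There the log2 fold changes were -1.19 (SE 0.49, adjusted p = 0.058) and -1.08 (SE 0.48, adjusted p = 0.108), and neither passed the test.
Cbx6 was at 74.5, 42.6 and 51.5 CPM in wt cells at 0 h and at 22.4, 19.6 and 40.3 CPM at 24 h. It fell by 1.02 on the log2 scale in wt cells (SE 0.34, adjusted p = 0.018), with no overlap. The call was lost without wt replicate 1 at 0 h (-0.80, adjusted p = 0.081) and without wt replicate 1 (-0.90) or 2 (-0.85) at 24 h. KO#1 cells had 54.0, 43.6 and 31.3 CPM at 0 h and 19.0, 19.1 and 37.5 CPM at 24 h, which overlapped, with a log2 fold change of -0.76 (SE 0.34, adjusted p = 0.077). Some other settings called Cbx6 lower in KO#1, among them at least 10 counts in every library (-0.83, adjusted p = 0.047) and the GC-corrected offsets given below. In the KO#2-labelled libraries the values of 46.3, 31.9 and 52.6 CPM and 53.4, 35.9 and 36.9 CPM overlapped throughout, with a log2 fold change of -0.05 (SE 0.33, adjusted p = 0.927). The response of these libraries differed from that of wt cells by 0.97 (SE 0.47, adjusted p = 0.222), which did not pass the test. Exons of Cbx6 share 563 bp with Npcd on the same strand, a gene with 0 to 67 counts per library.
Cbx7 and Cbx2, the pair between which exchange is known, showed no call with time in any line. Cbx7 had 167, 126 and 179 CPM in wt cells at 0 h and 118, 112 and 163 CPM at 24 h, which overlapped, with a log2 fold change of -0.26 (SE 0.29, adjusted p = 0.46). Cbx2 had 46.2, 25.9 and 37.0 CPM at 0 h and 24.2, 23.3 and 37.9 CPM at 24 h in wt cells, which overlapped too, with a log2 fold change of -0.34 (SE 0.28, adjusted p = 0.322). In KO#1 the log2 fold changes were -0.24 for Cbx7 (SE 0.29) and -0.01 for Cbx2 (SE 0.28). For the KO#2-labelled libraries they were 0.18 (SE 0.29) and 0.27 (SE 0.28).

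**Figure D2:**
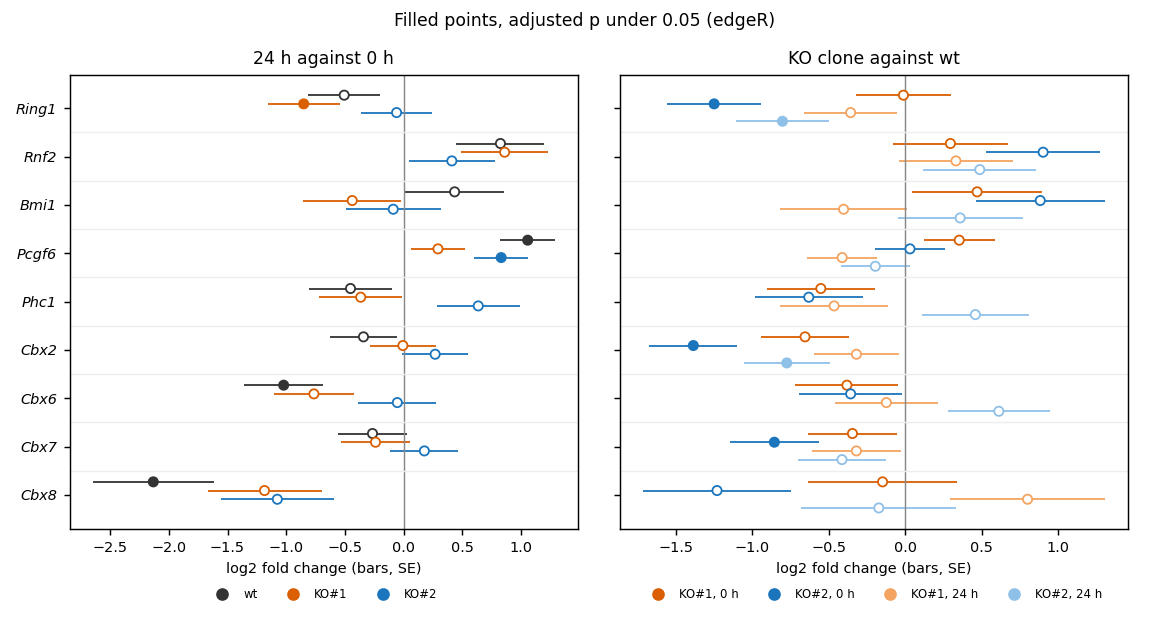
Log2 fold change of the 9 members (horizontal axis, bars showing the SE) for 24 h against 0 h in each line (left) and for both KO clones relative to wt cells at 0 h and 24 h (right), with filled points for calls. On the left, Cbx8 lies below 0 in all 3 lines (-2.13, -1.19 and -1.08), and on the right the 5 filled points are all below 0 and all belong to KO#2.

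Composition was then read within each library, with no scaling between libraries and no correction for GC content. The log2 ratio of Cbx7 to Cbx2 counts was 1.85, 2.28 and 2.28 in wt cells at 0 h, a mean of 2.13 ± 0.25 (SD, n = 3), and 2.22 ± 0.10 at 24 h. In KO#1 it was 2.38 ± 0.41 at 0 h and 2.19 ± 0.21 at 24 h, and in the KO#2-labelled libraries it was 2.65 ± 0.48 and 2.56 ± 0.07. Cbx7 thus exceeded Cbx2 in all 18 libraries, from 1.85 to 3.20 on the log2 scale, and in each line the means at 0 h and 24 h differed by less than the larger of their SDs. Scaled by exon length, Cbx7 held 62.0% ± 5.33 of the summed RNA of Cbx2, Cbx6, Cbx7 and Cbx8 in wt cells at 0 h and 68.3% ± 2.23 at 24 h. Its share was 63.8% ± 5.15 and 66.2% ± 2.13 in KO#1 and 62.7% ± 3.69 and 65.2% ± 1.38 for the KO#2-labelled libraries. Cbx2 held 21.5% ± 1.83 and 22.4% ± 0.86 in wt cells, 18.8% ± 3.94 and 22.1% ± 2.54 in KO#1, and 15.6% ± 3.90 and 16.8% ± 0.62 for the KO#2-labelled libraries.
The share of Cbx8 went from 5.24%, 1.75% and 2.26% in the wt libraries at 0 h to 1.09%, 0.55% and 0.97% at 24 h. Cbx6 held 13.4% ± 1.86 in wt cells at 0 h and 8.49% ± 1.31 at 24 h, and 13.6% ± 0.92 and 9.67% ± 0.72 in KO#1. In the KO#2-labelled libraries the Cbx6 share was 19.2% ± 1.15 at 0 h and 16.9% ± 1.70 at 24 h, above every wt and KO#1 library at both times. These shares describe the libraries and carry no test.
In the Pcgf family of wt cells, Pcgf2 had the largest share at 0 h and Pcgf6 at 24 h. Pcgf6 held 20.0%, 23.7% and 21.1% at 0 h and 44.4%, 51.1% and 55.0% at 24 h, while Pcgf2 held 60.4%, 41.5% and 41.4% at 0 h and 13.0%, 11.6% and 9.87% at 24 h. For the KO clones at 0 h, Pcgf2 held 24.6% ± 7.30 in KO#1 and 18.7% ± 6.79 in the KO#2-labelled libraries and Pcgf6 held 34.1% ± 3.10 and 31.4% ± 5.29. At 24 h the Pcgf6 shares of 50.2% ± 5.35 in wt cells, 50.2% ± 4.04 in KO#1 and 45.9% ± 8.60 for the KO#2-labelled libraries overlapped. Bmi1 held between 2.02% and 19.9%. Phc1 held 84.9% to 96.5% of the RNA of the Phc genes in every library.

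**Figure D3:**
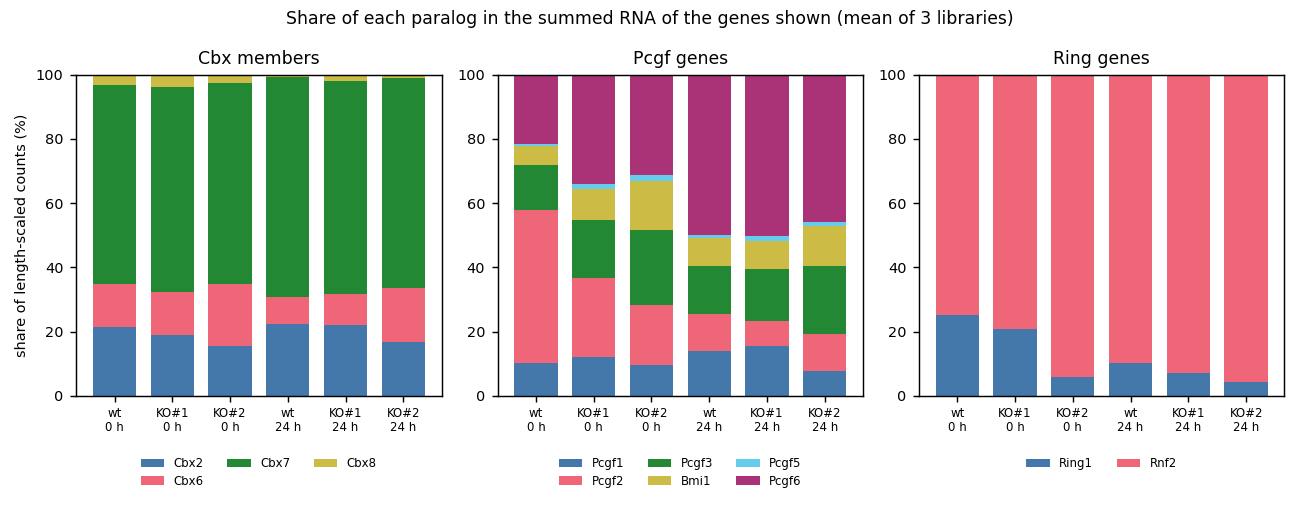
Share of each paralog in the length-scaled counts of the Cbx members and of the Pcgf and Ring genes (vertical axis, percent from 0 to 100) as stacked bars of the mean of 3 libraries in each group. Cbx7 holds between 62.0% and 68.3% in all groups, and Pcgf6 goes from 21.6% to 50.2% in wt cells.

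The comparison of KO with wt cells in the fit of all libraries gave calls in the KO#2-labelled libraries and none in KO#1. In KO#1, 0 of 9 members were called against wt cells at 0 h, where 6.67% of all genes were called, and 0 of 9 at 24 h, where 9.86% were. At an unadjusted p under 0.05, edgeR's count was 1 at 0 h, Cbx2 (19.9% of all genes), and 0 at 24 h (22.3%), and DESeq2 called 0 at both times (9.06% and 12.8% of all genes). At 24 h, libraries of wt and KO#1 cells with the same replicate number deviated together from their group means (r of 0.48, 0.22 and 0.59 across genes), which no other pair of groups did for all 3 numbers. A fit of these 6 libraries alone with the number as a block, added after seeing the data, called 3 of 9 members lower in KO#1, beside 42.6% of the genes tested in it, 20.5% lower. These were Phc1 (-0.45, SE 0.09, adjusted p = 0.0033), Pcgf6 (-0.38, SE 0.08, adjusted p = 0.0055) and Cbx7 (-0.34, SE 0.10, adjusted p = 0.025). In the fit of all libraries the fold changes of KO#1 against wt cells ran from -0.65 (Cbx2, SE 0.29) to 0.47 (Bmi1, SE 0.43) at 0 h and from -0.46 (Phc1, SE 0.35) to 0.80 (Cbx8, SE 0.51) at 24 h. In the KO#2-labelled libraries, 3 of 9 members were lower than in wt cells at 0 h, beside 38.1% of all genes called and 16.6% called lower. At 24 h, 2 of 9 were lower, beside 37.3% called and 16% called lower. No member was called higher in either comparison with the settings above. With at least 10 counts in every library, Rnf2 was called higher at 0 h (1.09, SE 0.38, adjusted p = 0.033), and some other settings called it too. With library sizes alone, which moved the median of all genes by 0.45 at 0 h and 1.04 at 24 h, the members lower with TMM were no longer called. Then 2 members were higher and 0 lower at 0 h, Rnf2 (1.32) and Bmi1 (1.30), beside 4976 genes higher and 532 lower, and 5 were higher and 0 lower at 24 h, beside 9676 and 532. With TMM scaling the median log2 fold change of the members was -0.63 at 0 h, beside 0.10 for all genes, and -0.17 at 24 h, beside 0.20.
Ring1 was lower in the KO#2-labelled libraries than in wt cells at both times. At 0 h its values of 3.41 to 3.49 CPM lay below the 6.89 to 11.5 CPM of wt cells and the 6.48 to 9.60 CPM of KO#1. The log2 fold change was -1.25 against wt cells (SE 0.31, adjusted p = 0.0052) and -1.24 against KO#1 (SE 0.30, adjusted p = 0.0074), and both calls held in all 18 fits that left out 1 library. At 24 h the 2.91 to 3.55 CPM of these libraries lay below the 4.22 to 6.86 CPM of wt cells, with a log2 fold change of -0.80 (SE 0.30, adjusted p = 0.044). That call rested on a narrow margin. It held in 7 of the 18 fits that left out 1 library, with the smallest change at -0.64, and was lost among protein-coding genes only (-0.71, adjusted p = 0.068) with the replicate number as a block (-0.80, adjusted p = 0.053), without a filter on low counts (-0.77, adjusted p = 0.145) and with at least 10 counts in every library (-0.65, adjusted p = 0.065). Scaled by library sizes alone, which shifted the median of all genes by 1.04 in this comparison, Ring1 stood at 0.25 at 24 h and at -0.77 (adjusted p = 0.144) at 0 h.
Cbx2 was at 17.3, 12.7 and 11.5 CPM in the KO#2-labelled libraries at 0 h, below the 25.9 to 46.2 CPM of wt cells and the 21.8 to 24.4 CPM of KO#1. Against wt cells the log2 fold change was -1.38 (SE 0.29, adjusted p = 0.0017), a call that held in all 18 fits that left out 1 library. The KO#2-labelled libraries at 24 h had 19.1, 15.2 and 15.7 CPM, all below the 23.3 to 37.9 CPM of wt cells, and the log2 fold change was -0.77 (SE 0.28, adjusted p = 0.038). The call at 24 h was lost without wt replicate 3 at 24 h (-0.50, adjusted p = 0.214), without any 1 of the KO#2 replicates at 24 h (-0.88 to -0.71), among protein-coding genes only (-0.68, adjusted p = 0.053), without a filter on low counts (-0.74, adjusted p = 0.055) and with at least 10 counts in every library (-0.62, adjusted p = 0.071). With library sizes alone Cbx2 stood at 0.23 at 24 h and at -0.90 (adjusted p = 0.070) at 0 h.
Cbx7 had 89.8, 65.3 and 106 CPM in the KO#2-labelled libraries at 0 h, below the 126 to 179 CPM of wt cells. The log2 fold change was -0.86 (SE 0.29, adjusted p = 0.029). It was not called without wt replicate 1 (-0.84, adjusted p = 0.063) or 3 (-0.75, adjusted p = 0.096) at 0 h, nor without KO#2 replicate 1 (-0.88, adjusted p = 0.065) or 2 (-0.68, adjusted p = 0.116), nor with at least 10 counts in every library (-0.67, adjusted p = 0.066) or library sizes alone (-0.38, adjusted p = 0.489). At 24 h the log2 fold change was -0.41 (SE 0.29, adjusted p = 0.274), and the values of 111, 94.7 and 89.0 CPM lay just below the 112 to 163 CPM of wt cells. Exons of Cbx7 share 100 bp with Apobec3 on the opposite strand.
Cbx8 (-1.23, SE 0.48, adjusted p = 0.052), Rnf2 (0.90, SE 0.37, adjusted p = 0.064) and Bmi1 (0.88, SE 0.42, adjusted p = 0.103) were not called at 0 h in the main TMM fit. Between the clones at 24 h, 1 of 9 members was called, beside 35.4% of all genes. This was Phc1, which was higher in the KO#2-labelled libraries than in KO#1 by 0.92 (SE 0.35, adjusted p = 0.0495). It held in 5 of the 18 fits that left out 1 library. Without replicate 1 of KO#2 at 24 h the value was 0.38 (adjusted p = 0.417), and the replicate block gave 0.88 (adjusted p = 0.073). At 0 h Ring1 was the 1 member called between the clones, beside 26.4% of all genes, and Cbx2 (-0.73, SE 0.28, adjusted p = 0.064) and Cbx7 (-0.51, SE 0.29, adjusted p = 0.198) did not pass the test.

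Fold changes of the members went with the GC content of their transcripts in some of the comparisons, with and without KO#2. The longest transcripts of Rnf2 (39.5% GC), Bmi1 (40.2%) and Pcgf6 (44.5%) lie below the median of 49.7% over the genes tested, and those of Phc1 (53.1%), Cbx6 and Cbx8 (54.9% each), Cbx7 (56.4%), Ring1 (56.9%) and Cbx2 (57.6%) lie above it. Across the 9 members, Pearson's r of the log2 fold change with GC content was -0.95 for KO#2 against wt cells at 0 h, -0.84 for KO#1 against wt cells at 0 h, -0.77 between the clones at 0 h and -0.43 at 24 h. It was -0.72 for 24 h against 0 h in wt cells, -0.60 in KO#1 and -0.30 in KO#2. At 24 h it was -0.55 for KO#2 and -0.05 for KO#1 against wt cells, and it was positive for the difference in response, with 0.58 for KO#1 and 0.85 for KO#2. Across 16517 genes r ran from -0.43 (between the clones at 0 h) to 0.17 (response of KO#2), with -0.37 for KO#2 against wt cells at 0 h. These points are genes of the same libraries and not independent replicates, and the correlations are given as a description.
With offsets corrected for GC content in each library, the calls for Ring1 (-0.87, SE 0.25, adjusted p = 0.016) and Cbx2 (-0.96, SE 0.21, adjusted p = 0.003) in KO#2 at 0 h held, that for Cbx7 did not (-0.52, SE 0.22, adjusted p = 0.092), and Pcgf6 was called lower (-0.76, SE 0.25, adjusted p = 0.034). The values of Rnf2 and Bmi1 changed sign, to -0.12 each. In that fit 26.6% of all genes were called, 1593 higher and 2793 lower, against 3571 and 2758 without the correction, and the median of all genes was -0.16. Corrected values at 24 h against wt cells were -0.66 for Ring1 (adjusted p = 0.040) and -0.58 for Cbx2 (adjusted p = 0.032), both still called beside 37.5% of all genes, with 2702 genes higher and 3493 lower against 3536 and 2661 without it. In wt cells between 0 h and 24 h, Pcgf6 (0.73, adjusted p = 0.021), Cbx6 (-0.78, adjusted p = 0.022) and Cbx8 (-1.87, adjusted p = 0.0039) kept their calls, beside 52.6% of all genes. In KO#1 the correction added Rnf2 (0.67, adjusted p = 0.035) and Cbx6 (-0.69, adjusted p = 0.047) to Ring1, beside 44.6% of all genes. Of the 12 calls, 11 were kept with the correction. What sets the relation with GC content was not tested.

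**Figure D4:**
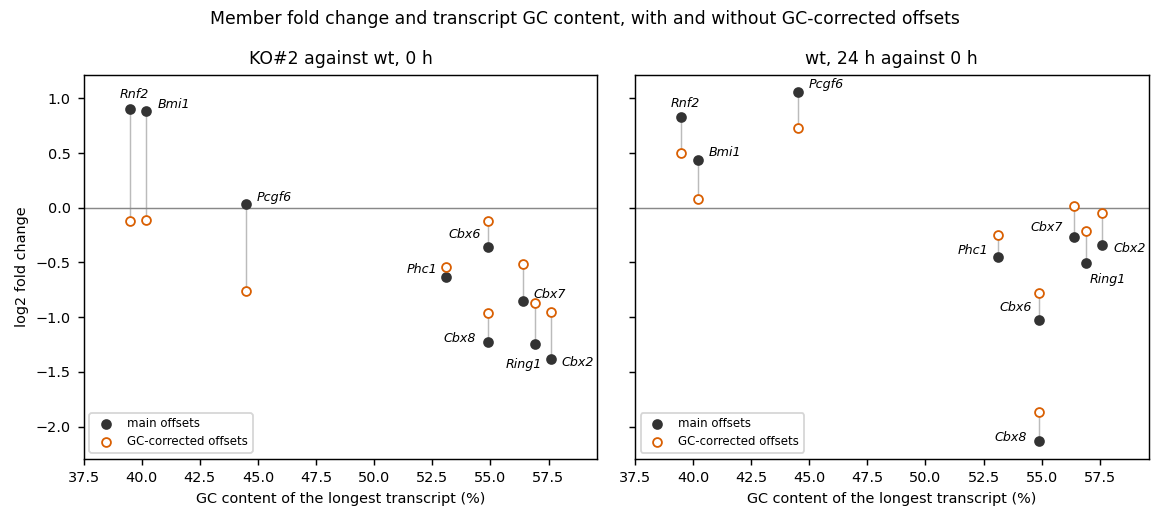
Log2 fold change (vertical axis) of the 9 members against the GC content of their longest transcript (horizontal axis, percent), for KO#2 against wt cells at 0 h and for 24 h against 0 h in wt cells, with the main offsets (filled) and with GC-corrected offsets (open). On the left Rnf2 and Bmi1 move from 0.90 and 0.88 to -0.12 each, while Ring1 and Cbx2 move from -1.25 and -1.38 to -0.87 and -0.96.

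The other genes of PRC1 were read from a list of 23, all of which were tested. In wt cells 3 rose and 9 fell upon EpiLC induction (beside 26% and 24.7% of all genes), in KO#1 1 rose and 10 fell (20.1% and 20.6%), and in the KO#2-labelled libraries 4 rose and 3 fell (12.7% and 13.3%). With library sizes alone the counts were 0 and 11 in wt cells, 0 and 16 in KO#1 and 1 and 2 in the KO#2-labelled libraries. Of the 16619 genes tested, that scaling called 1587 higher and 5845 lower in wt cells, 837 and 6494 in KO#1 and 1271 and 1633 in KO#2. Their median log2 fold change with TMM scaling was -0.14, -0.63 and -0.13 in that order. Fbrsl1 and Fbrs, relatives of the Pcgf3 and Pcgf5 complex partner Auts2, had log2 fold changes in wt cells of -3.29 (SE 0.52, adjusted p = 7.2e-05) and -2.96 (SE 0.61, adjusted p = 7.7e-04). E2f6, the DNA-binding partner of Pcgf6, went from 9.18, 15.6 and 13.2 CPM to 29.9, 26.1 and 32.7 CPM in wt cells, a rise of 1.20 (SE 0.25, adjusted p = 9.3e-04). Its rise was 0.97 in the KO#2-labelled libraries (SE 0.25, adjusted p = 0.0079). Both E2f6 calls were lost with library sizes alone (0.58, adjusted p = 0.193, and 0.93, adjusted p = 0.073). In KO#1 the value was 0.58 (SE 0.25, adjusted p = 0.073).
Among the paralogs of the members, Phc3 fell in all 3 lines, by 2.16 in wt cells, by 2.24 in KO#1 and by 1.28 in the KO#2-labelled libraries on the log2 scale (SE 0.37, 0.38 and 0.35). Phc2 fell by 1.18 in KO#1 and by 1.20 in the KO#2-labelled libraries (SE 0.38 each), and its value in wt cells was -0.81 (SE 0.38, adjusted p = 0.083). In wt cells it was called lower with at least 10 counts in every library (-0.90, adjusted p = 0.0498) and with library sizes alone (-1.33, adjusted p = 0.019).
Pcgf2, the canonical partner of the Ring proteins in pluripotent cells, was at 78.4, 41.8 and 41.2 CPM in wt cells at 0 h and at 12.9, 11.7 and 9.20 CPM at 24 h. It fell by 2.24 in wt cells (SE 0.42, adjusted p = 3.3e-04) and by 1.83 in KO#1 (SE 0.42, adjusted p = 0.0026), and its value in the KO#2-labelled libraries was -0.45 (SE 0.40, adjusted p = 0.435). There Pcgf2 stood at 19.7, 6.69 and 5.39 CPM at 24 h, and without replicate 1 at 24 h it fell by 1.25 (adjusted p = 0.015). At 0 h it was lower than in wt cells in both clones, with 23.3, 21.1 and 17.5 CPM in KO#1 (-1.37, SE 0.41, adjusted p = 0.0499) and 19.8, 8.59 and 15.0 CPM in the KO#2-labelled libraries (-1.88, SE 0.41, adjusted p = 0.0024), with no overlap. The call of Pcgf2 in KO#1 held in 5 of the 18 fits that left out 1 library (-1.53 to -1.01) and was lost with library sizes alone (-1.18, adjusted p = 0.118) and with at least 10 counts in every library (-1.38, adjusted p = 0.070). The response in the KO#2-labelled libraries differed from that of wt cells by 1.79 (SE 0.57, adjusted p = 0.096), which did not pass the test and was 0.99 (adjusted p = 0.312) without that replicate. The fit of the wt and KO#1 libraries at 24 h with the replicate block also tested the wider list. It called Pcgf2 (-0.92, adjusted p = 0.0016), E2f6 (-0.49, adjusted p = 0.0046), Phc2 (-0.76, adjusted p = 0.0066) and Fbrsl1 (-0.66, adjusted p = 0.016) lower in KO#1, beside 20.5% of genes. Pcgf1, Pcgf3, Pcgf5, Phc3 and Fbrs were not called in it.
Against wt cells, 4 of the 23 genes were higher and 3 lower in the KO#2-labelled libraries at 0 h, beside 21.5% and 16.6% of all genes, and 4 higher and 1 lower at 24 h, beside 21.3% and 16%. With GC-corrected offsets these became 0 higher and 5 lower at 0 h and 3 of each at 24 h, and with library sizes alone 5 higher and 1 lower, then 18 and 0. Over all genes, GC-corrected offsets called 1593 higher and 2793 lower at 0 h and 2702 and 3493 at 24 h. Library sizes alone called 4976 higher and 532 lower at 0 h and 9676 and 532 at 24 h. Phc3 was higher in the KO#2-labelled libraries at 0 h (1.04, SE 0.35, adjusted p = 0.028) and at 24 h (1.92, SE 0.37, adjusted p = 6.7e-04), and Phc2 was lower at 24 h (-1.35, SE 0.38, adjusted p = 0.011). The call of Phc3 at 0 h was lost with GC-corrected offsets (0.19, adjusted p = 0.72) and held in 14 of the 18 fits that left out 1 library, and that of Phc2 was lost with library sizes alone (-0.35, adjusted p = 0.497). For Pcgf1, Pcgf3 and Pcgf5, which build variant complexes, the main TMM fit gave no call between the time points or for either clone against wt cells. Other settings called some of them for KO#2 against wt cells at 24 h, among them DESeq2 for Pcgf1 (-0.92, adjusted p = 0.049) and Pcgf3 (0.42, adjusted p = 0.014), GC-corrected offsets for Pcgf1 (-1.05, adjusted p = 0.035), at least 10 counts in every library for Pcgf3 (0.57, adjusted p = 0.011), and library sizes alone for Pcgf3 (1.46) and Pcgf5 (1.70). At 0 h, Pcgf3 was called for KO#2 with at least 10 counts in every library (0.44, adjusted p = 0.047) and Pcgf5 with library sizes alone (1.20, adjusted p = 0.025). For 24 h against 0 h in KO#1, Pcgf3 was called by DESeq2 (-0.39, adjusted p = 0.027), with at least 10 counts in every library (-0.45, adjusted p = 0.034) and with library sizes alone (-1.20, adjusted p = 0.0030), the last of which also called Pcgf5 (-1.14, adjusted p = 0.022). Of 6 genes for H2A deubiquitination, 1 rose and 2 fell with time in wt cells (beside 26% and 24.7% of all genes) and in KO#1 (20.1% and 20.6%), and 1 rose and 0 fell in the KO#2-labelled libraries (12.7% and 13.3%). With GC-corrected offsets 2 rose and 1 fell in wt cells, beside 4430 and 4259 of 16517 genes. For KO#1 the counts were 0 and 2, beside 3648 and 3722. Compared with wt cells, KO#2-labelled libraries had 2 higher and 2 lower at 0 h, beside 21.5% and 16.6% of all genes. At 24 h they had 3 higher and 0 lower, beside 21.3% and 16%. GC-corrected offsets, with the counts over all genes given above, turned these into 0 and 2, then 0 and 0. Against KO#1, 3 were higher at 0 h and 4 at 24 h (beside 15.1% and 19.3% of all genes), and 0 and 2 with GC-corrected offsets (beside 960 and 2539 of 16517 genes).

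The genes whose log2 CPM was most like that of Cbx7 over the 18 libraries, among 10138 compared, were Rcc2 (Pearson's r 0.93), Ogdh (0.92) and Ap1b1 (0.92). For Cbx2 they were Strn4 (0.95), Mknk2 (0.94) and Gsk3a (0.94). The least alike were Xlr3a (-0.91), Xlr5a (-0.90) and Gnpda2 (-0.90) for Cbx7 and Acadsb (-0.94), Ggnbp2 (-0.94) and Gm13230 (-0.93) for Cbx2. These values describe libraries that share groups, depth and base composition.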

How the data were processed

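RNA was measured in 18 libraries of 6 groups, assigned from the sample titles. Per the study's methods, total RNA went into stranded libraries that were read from both ends and aligned to GRCm38. The authors deposited counts per gene, as whole numbers without normalization. The annotation release and the use of strand in the counting are not given in the sources used here. Lengths, GC content (of the longest transcript) and positions come from GENCODE release M21, which held 45143 of 45706 gene identifiers, and promoter windows from RefSeq. The members and gene lists were chosen with earlier results of these data known.

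Counts were analysed in R 4.3.3 with edgeR 4.0.16. After filterByExpr (groups given, minimum count 10), 16619 genes remained. TMM factors scaled the library sizes, and all 18 libraries entered a single quasi-likelihood fit with a term for each of the 6 groups. The SE of a log2 fold change was taken as its size over the root of the F statistic. A gene was called at an adjusted p-value (Benjamini-Hochberg) under 0.05. Within-library ratios used a prior count of 0.5. Shares are counts per kb of the union of exons, in percent of the genes named with them. Floors of 3 counts cover counting error only, and depth was 3466436 to 23872837 counts per library. The study's methods give the replicates as independent biological ones, and 0 of 153 pairs of libraries had identical counts. The named genes are the members, 6 paralogs from the wider list and the 3 other genes of that list with the smallest adjusted p in wt cells, and the 3 genes most and least like Cbx7 and Cbx2 among those with an average log2 CPM of at least 2.

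Alternatives were DESeq2 1.42.0, RLE size factors, library sizes alone, other filters on low counts, a fit of only the groups compared, a block for the replicate number, a threshold of 0.01 on the adjusted p-value and leaving out each library. Protein-coding genes only (13980), GC-corrected offsets (natural spline with 5 degrees of freedom, 16517 genes), both block and GC correction, a block in a fit of wt and KO#1 cells at 24 h alone, and the shares of the Ring, Pcgf and Phc genes were added after seeing the data. 1 gene of the planned lists is not reported here. The model fit was tested on simulated data with known answers. Figures were drawn with matplotlib in Python.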

Additional observations from a re-analysis of the deposited data

How the results depend on the processing

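Of the 12 member calls, DESeq2 kept 12, RLE size factors and GC-corrected offsets 11 each, and protein-coding genes only, only the groups compared and the replicate block 10 each, while no filter on low counts kept 9, at least 10 counts in every library 8, an adjusted p-value under 0.01 kept 5 and library sizes alone 4. Depth limits Cbx8 most, with as few as 5 counts in a library. Cbx8 and Bmi1 were not tested with at least 10 counts in every library, so that the Cbx8 call counts there as not kept. The cause of these changes was not tested. Library sizes alone shift the median fold change over all genes (log2) by -0.79 (24 h against 0 h in KO#1) to 1.07 (KO#2 against KO#1 at 24 h).
The number of members called for 24 h against 0 h in KO#1, 1, became 0 at an adjusted p-value under 0.01, 2 with no filter, with at least 10 counts in every library and with the replicate block, 3 with DESeq2, with GC-corrected offsets and with block and correction together, and 5 with library sizes alone. For KO#2, 1 became 0 at an adjusted p under 0.01 and with library sizes alone. Over all genes, time in KO#1 gave 6774 calls in the main fit, 7396 with DESeq2, 7370 with GC-corrected offsets and 7331 with library sizes alone. Time in KO#2 gave 4324 calls over all genes in the main fit and 2904 with library sizes alone. Against wt cells at 0 h, the 3 for KO#2 became 5 with no filter, which added Rnf2 and Bmi1 as higher. With at least 10 counts in every library there were still 3, but Cbx7 was not called (adjusted p = 0.066) and Rnf2 was called higher (1.09). At 24 h, the 2 for KO#2 became 0 at an adjusted p under 0.01, with no filter, with at least 10 counts in every library and among protein-coding genes, 1 with the replicate block, 4 with block and GC correction and 5 with library sizes alone, all 5 higher and neither of the 2 among them. Of all genes, library sizes alone called 9676 higher and 532 lower in that comparison. With library sizes alone the 3 lower at 0 h were not called, and 2 others were called higher. Between the clones, 1 at 0 h became 0 with library sizes alone and 2 with DESeq2, only the groups compared and GC correction with or without the block. At 24 h, 1 became 0 at an adjusted p under 0.01, with RLE, the replicate block and only the groups compared, 2 with no filter, with at least 10 counts and with GC correction with or without the block, and 6 with library sizes alone. Over all genes, this comparison gave 5878 calls in the main fit, 5647 with GC-corrected offsets and 9986 with library sizes alone, 9533 of the last being higher.
In fits that left out 1 library each, the count with time was 2 to 4 in wt cells, 0 to 3 in KO#1 and 0 to 1 in KO#2. For KO#2 against wt cells it was 2 to 5 at 0 h and 0 to 2 at 24 h, and between the clones 1 to 3, then 0 to 1. It was 0 for KO#1 against wt cells at both times, where a replicate block in a fit of the 24 h libraries alone gave 3, and for both differences in response. The mean Cbx7 to Cbx2 ratio of a group moved by less than 1 SD with a prior count of 2 and with each replicate left out. With the longest transcript as length, the Cbx6 share in wt, KO#1 and KO#2 was 16.2%, 16.5% and 22.9% at 0 h, then 10.4%, 11.8% and 20.3% at 24 h, and the Cbx7 share at 24 h 64.0% in KO#1 and 62.0% in KO#2.
The signs of these fold changes also turned. With GC-corrected offsets, KO#2 against wt cells gave -0.12 for Rnf2, -0.12 for Bmi1 and -0.76 for Pcgf6 (called) at 0 h and -0.12 for Rnf2 and -0.22 for Bmi1 at 24 h, and with the block added -0.11, -0.079 and -0.75 (called), then -0.13 and -0.25. KO#2 against KO#1 gave -0.40 for Rnf2 at 0 h, and -0.57 for Rnf2, -0.25 for Pcgf6 and 0.18 for Cbx7 at 24 h, and with the block -0.38, then -0.59, -0.25 and 0.19. Library sizes alone turned Rnf2 with time in KO#1 (-0.0051), Ring1 (0.25), Cbx2 (0.23) and Pcgf6 (0.84, called) in KO#2 against wt cells at 24 h and Cbx7 between the clones at 24 h (0.91, called). Pcgf6 in KO#2 against wt cells at 0 h was -0.018 with RLE and -0.013 with DESeq2, and -0.11 to 0.11 with libraries left out. Cbx7 between the clones at 24 h was 0.036 with at least 10 counts in every library and -0.30 to 0.25 with libraries left out. Leaving out libraries also gave -0.036 to 0.64 for Bmi1 and -0.083 to 0.69 for Phc1 in KO#2 against wt cells at 24 h, and -0.11 to 0.49 for Rnf2 and -0.036 to 0.37 for Pcgf6 between the clones at 24 h.
Replicates share the numbers 1 to 3, and deviations from group means correlated at 0.05 on average between libraries of the same number and at -0.03 between others, with 1 of 15 pairs of groups, wt and KO#1 at 24 h, above 0.1 throughout. The numbers were taken to pair the samples of those groups only. The replicate block among the alternatives was nonetheless fitted to all 18 libraries, those of KO#2 included.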
